A study of Rattus norvegicus with 12 samples.

Results

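The genes described here encode the proteins of the cytosolic ribosome. They were taken by name from the rat array: every spot that was not a control and whose gene name was Rpl or Rps followed by a number and at most 1 letter, Rplp0 to Rplp2, or Rpsa, with the kinases of the Rps6k family left out. The name rule found 130 spots, which stood for 112 probes and 75 genes, 44 of the large and 31 of the small ribosomal subunit, out of 35536 genes or unnamed transcripts on the array. The rule picks genes by name and uses no measured value, but this gene family was chosen with earlier results of these data known. Of the 75 genes, 74 were bright enough to be tested, together with 20769 genes in all. The remaining one, Rpl37a, was well above background on 5 of the 12 arrays and was not tested.

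The study measured the kidney cortex of male Fisher 344 rats, 8 weeks old, that had received cephaloridine, a cephalosporin antibiotic that injures the proximal tubule. Animals received a single intravenous injection in saline and the kidneys were taken 24 h later. There were 4 groups of 3 animals, with 1 single-colour array per animal: controls given saline alone (0 mg/kg), a low dose of 150 mg/kg, a middle dose of 300 mg/kg, and a high dose, 600 mg/kg. The design text calls the doses subtoxic and toxic, so the comparisons below ask how these genes stood at each dose relative to saline and from one dose to the next.

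A ribosome is built from a small subunit, which reads the messenger RNA, and a large subunit, which joins the amino acids. Each subunit holds many different proteins around a ribosomal RNA core, nearly all of them present once per ribosome, so the genes are as a rule expressed together. Their messenger RNAs typically begin with a run of pyrimidines, the 5′ terminal oligopyrimidine tract, through which growth signalling controls how actively they are translated. In the kidney cortex most RNA comes from proximal tubule cells.

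That tract could be looked up in the RefSeq promoter windows of build GRCr8, in which 57 of the 75 genes had exactly 1 entry under the name on the array. A tract was counted where a C was followed by at least 4 letters that were C or T, on the sense strand only, since it belongs to the RNA's start. It began exactly at the annotated start in 22 of the 57 windows (38.6%), against 881 of all 33469 windows (2.63%). Within 3 bases of the start it was found in 33 (57.9%), against 11.2% of all windows. The windows below run from 10 bases before the annotated start to 20 bases from it on, with the tract in capitals. The first group shows genes with a tract that were higher at the high dose.

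Rpl10a: cttctgccttCTTTTCCggttcccgcagcc

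Rpl22: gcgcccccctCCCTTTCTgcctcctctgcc

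Rps27: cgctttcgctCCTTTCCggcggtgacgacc

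The next group shows genes that also carry a tract but did not pass the test at the high dose.

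Rps26: ccgccgggtcCTCTTTCgagtcttggctcc

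Rpl34: tccttttcctCTTCCggggacggtgcttag

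Rps15: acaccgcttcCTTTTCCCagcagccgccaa

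The last group shows genes among those with the largest rises in whose window no tract began within 3 bases of the annotated start.

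Rps19: cttgtgcgcccgggaaaccccgtcgttccc

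Rps12: gaagcccagcagagcgcttaaataccgtca

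Rpl6: ttacatcactagatggcgggtgaaaaggcg

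These windows lie at chr20:6390523-6390552 (plus strand) for Rpl10a, chr5:168117951-168117980 (plus) for Rpl22 and chr2:177964587-177964616 (minus) for Rps27. Those of the second group lie at chr7:1643385-1643414 (minus) for Rps26, chr2:221962264-221962293 (minus) for Rpl34 and chr7:10068096-10068125 (minus) for Rps15. Those of the third lie at chr1:89608678-89608707 (plus) for Rps19, chr1:23500065-23500094 (plus) for Rps12 and chr12:41011671-41011700 (minus) for Rpl6. A missing tract says only that these letters are not at the annotated start, which may not be the start used in kidney.

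The 12 arrays were alike in signal: their 75th percentiles ran from 627.2 to 711.6, between 59.3% and 63.3% of probes were well above background, and 0 spots were saturated. A level below is the log2 signal of the brightest probe of a gene minus the 75th percentile of its array, so that 0 is the signal of a gene at that percentile. The median level of the 74 genes was 5.81, against -0.61 for all genes tested. The arrays lay on 4 slides. Slide 1 held the 3 controls and low 1, slide 2 held low 2 and middle 1, slide 3 held low 3 and middle 2, and slide 4 held middle 3 and the 3 high arrays. Control and high animals never shared a slide, so a slide effect cannot be told apart from a dose effect without the chain of shared slides. A fit that blocks on slide follows that chain and rests on single arrays at each link, and its values stand beside the results as slide-blocked. The labels do not say how the animals of a group were housed or processed. The p-values of the main fit measure the spread between animals of the same group, pooled over all 12 arrays. Controls and high animals each lay on a single slide, so their part of that spread holds no slide-to-slide variation, while their difference may.

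At 600 mg/kg ribosomal protein genes of both subunits were higher than in controls by a small amount. Of the 74 genes, 54 were higher and 0 lower at a Benjamini-Hochberg adjusted p under 0.05 in limma (background: 18.0% of all genes higher, 16.8% lower). The median log2 change was 0.26 (1.20-fold), against -0.002 over all genes, with a median standard error of 0.06 (n = 3 animals per group). In 69 of the 74 genes every high animal lay above every control (background 28.4%). The large subunit gave 32 of 43 genes higher with a median of 0.24, and the small subunit 22 of 31 with a median of 0.27. In bulk tissue, more RNA per cell and a different mix of cells cannot be told apart.

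The slide-blocked median was 0.30 and 73 of 74 changes were positive, but the median standard error was 0.12 and 2 genes were called, Rps26 among them (background 1.83% of genes higher). All 54 genes called without the block kept a positive change with it, with a median of 0.30, and 1 of them kept its call. Leaving out any 1 array gave between 42 and 62 genes, and 42 of the 54 kept their call whichever array was left out. Among the 12 that lost it at least once were Rplp2, Rpl13a, Rpl35a, Rpl29, Rpl24, Rpl17, Rps29, Rpl23, Rps2, Rpl27 and Rpl7a. For Rpl35a, at adjusted p = 0.0498 with all arrays, the highest adjusted p without 1 array was 0.144, and each of 10 arrays ended the call when left out.

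**Figure D1:**
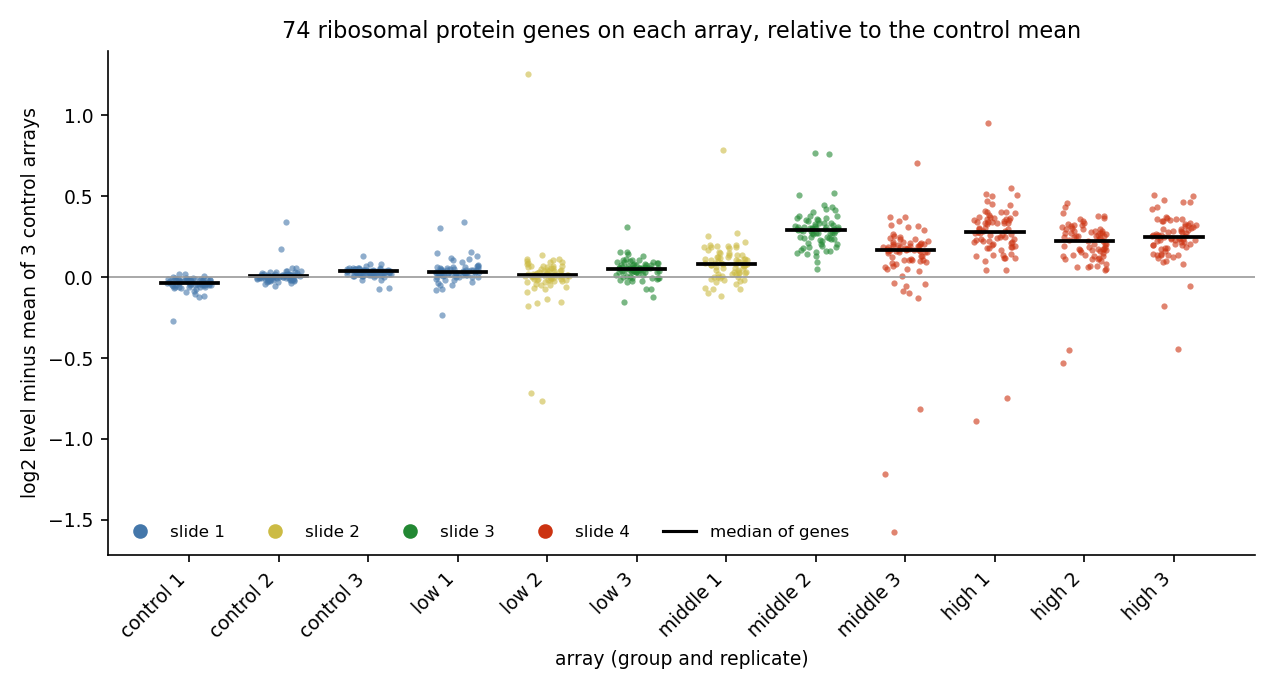
Each point is 1 of the 74 ribosomal protein genes on 1 array: its log2 level minus the mean of the 3 controls (y axis), by array (x axis), coloured by slide, with a black line at the median of the genes. The medians of the 3 high arrays sit between 0.22 and 0.28, those of the low arrays between 0.01 and 0.05, and the middle arrays spread from 0.08 to 0.29.

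Rps19, a small-subunit protein needed to mature the small subunit's ribosomal RNA, had the largest rise. Its levels were 5.11, 5.13 and 5.19 in controls, 5.17, 5.18 and 5.22 at the low dose, 5.34, 5.58 and 5.38 at the middle dose and 5.70, 5.60 and 5.65 at the high dose. Every middle and high animal lay above every control. The change at the high dose was 0.50 ± 0.06 (SE; 1.42-fold, limma adjusted p = 0.000291), and 0.54 when slide-blocked (adjusted p = 0.0657).

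Rpl10a, which forms the mobile stalk near the ribosome's exit site for transfer RNA, had levels of 3.996, 4.03 and 4.09 in controls and 4.56, 4.47 and 4.51 at the high dose. The low-dose levels were 4.06, 4.15 and 4.12, and the middle-dose levels 4.19, 4.36 and 4.36. Groups did not overlap between control and middle or high, and the change at 600 mg/kg was 0.47 ± 0.06 (SE; 1.39-fold, limma adjusted p = 0.000269; slide-blocked 0.31, adjusted p = 0.208).

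Rpl4 and Rpl3 are long-tailed proteins of the core of the large subunit, Rpl4 reaching the tunnel through which the new protein leaves and Rpl3 lying near the site of peptide bond formation. Rpl4 stood at 5.46, 5.45 and 5.55 in controls, 5.55, 5.57 and 5.64 at the low dose, 5.74, 5.73 and 5.86 at the middle dose and 5.99, 5.88 and 5.95 at the high dose. It rose by 0.45 ± 0.05 (SE, limma adjusted p = 0.000236) at the high dose, with no overlap between high and control. Rpl3 stood at 3.66, 3.59 and 3.68 in controls and at 4.04, 3.997 and 3.95 at the high dose, a rise of 0.36 ± 0.05 (limma adjusted p = 0.000369). The slide-blocked changes were 0.28 (adjusted p = 0.221) and 0.44 (adjusted p = 0.0843).

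The other members among the 12 largest called rises were Rpl27a (0.45), Rps12 (0.44), Rpl23a (0.41), Rpl22 (0.38), Rpl6 (0.37), Rps15a (0.37), Rps13 (0.35) and Rpl13 (0.34). Rpl23a sits at the exit of the protein tunnel and Rpl22 binds the outside of the large subunit. All 8 had the 3 high animals above the 3 controls, with limma adjusted p between 0.000277 for Rpl6 and 0.00167 for Rps13. Rps9, whose change of 0.25 lay nearest the median of all 74 genes, stood at 5.65, 5.67 and 5.67 in controls and at 6.001, 5.87 and 5.89 at the high dose (limma adjusted p = 0.00782).

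The acidic stalk of the large subunit, which recruits the elongation factors, is made by Rplp0, Rplp1 and Rplp2. Rplp1 was spotted 10 times on each array, with an SD over spots between 0.02 and 0.05, which gives its levels a technical error. They were 7.86, 7.94 and 7.95 in controls, 7.94, 7.99 and 7.96 at the low dose, 7.95, 8.07 and 8.13 at the middle dose and 8.18, 8.17 and 8.15 at the high dose. High and control animals did not overlap, and middle 1 lay within the control range. The rise was 0.25 ± 0.05 (SE, limma adjusted p = 0.00455), and 0.09 when slide-blocked (adjusted p = 0.67). Rplp2 rose by 0.30 ± 0.09 (limma adjusted p = 0.0248). Its call was lost without control 1, 2 or 3 or high 1 or 3, with adjusted p up to 0.0815. Rplp0 carried an older name on the array and so fell outside the name rule. It was higher by 0.42 (limma adjusted p = 0.00104; slide-blocked 0.13, adjusted p = 0.557).

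Rpl5 and Rpl11 travel together with the 5S ribosomal RNA into the large subunit and, outside it, bind the p53 inhibitor Mdm2. Rpl11 stood at 6.45, 6.51 and 6.54 in controls and at 6.88, 6.76 and 6.82 at the high dose, a rise of 0.32 ± 0.06 (SE, limma adjusted p = 0.00408). Rpl5 stood at 5.65, 5.68 and 5.72 in controls and at 5.81, 5.74 and 5.76 at the high dose, and its change of 0.09 ± 0.05 did not pass (adjusted p = 0.186). The brightest Rpl5 probe stood for the gene, and 1 of its 3 probes was called when each was tested on its own. Whether Rpl5 and Rpl11 differed from each other was not tested.

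Among other large-subunit proteins with known roles, Rpl10, one of the last to join the subunit, rose by 0.23 ± 0.05 (SE, limma adjusted p = 0.00504). Rpl39, which lines the exit tunnel, rose by 0.30 ± 0.05 (adjusted p = 0.0019) and Rpl32 by 0.27 ± 0.05 (adjusted p = 0.00403). Rpl23 rose by 0.20 ± 0.05 (adjusted p = 0.0143; 0.0584 without control 1). Rpl13a, known outside the ribosome as a silencer of inflammatory messages, rose by 0.24 ± 0.07 (adjusted p = 0.0302; up to 0.11 without control 1 or 3 or high 1 or 3). Rpl26, which binds the p53 message, changed by 0.16 ± 0.06 and did not pass with its brightest probe (adjusted p = 0.0551). Tested on its own, 1 of its 2 probes was called.

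In the small subunit, Rps3 at the entry of the messenger RNA stood at 5.31, 5.33 and 5.36 in controls and at 5.70, 5.63 and 5.61 at the high dose. It rose by 0.31 ± 0.04 (SE, limma adjusted p = 0.000453). Rps6, the target of the S6 kinases, stood at 7.77, 7.80 and 7.79 in controls and at 8.06, 8.04 and 8.07 at the high dose, and rose by 0.27 ± 0.06 (adjusted p = 0.00487). Rpsa, also known as the laminin receptor, rose by 0.34 ± 0.05 (adjusted p = 0.000529) and Rps27, a zinc-finger protein, by 0.33 ± 0.05 (adjusted p = 0.00124). For these 4 genes no high animal fell into the control range, and the slide-blocked changes were 0.26, 0.18, 0.25 and 0.31. Rps29 rose by 0.20 ± 0.06 (adjusted p = 0.0295; up to 0.109 without control 1 or 2 or high 1 or 3).

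The 20 genes that did not pass were Rps26, Rpl34, Rpl5, Rpl36a, Rps27a, Rps15, Rpl35, Rpl7, Rps14, Rpl21, Rps20, Rpl31, Rps18, Rpl10l, Rpl41, Rpl26, Rps21, Rps16, Rps7 and Rpl3l. All but the first 2 had a positive change. Rps14, at the platform of the small subunit, stood at 5.80, 5.80 and 5.87 in controls, 5.90, 6.33 and 5.997 at the middle dose and 6.001, 5.87 and 5.999 at the high dose (change at the high dose 0.13 ± 0.10, limma adjusted p = 0.314). Its highest value was on middle 2. Rps27a, made as a fusion of ubiquitin and a ribosomal protein, stood at 5.13, 5.22 and 5.26 in controls and at 5.25, 5.27 and 5.39 at the high dose (0.10 ± 0.11, adjusted p = 0.516; slide-blocked 0.60, adjusted p = 0.0628).

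**Figure D2:**
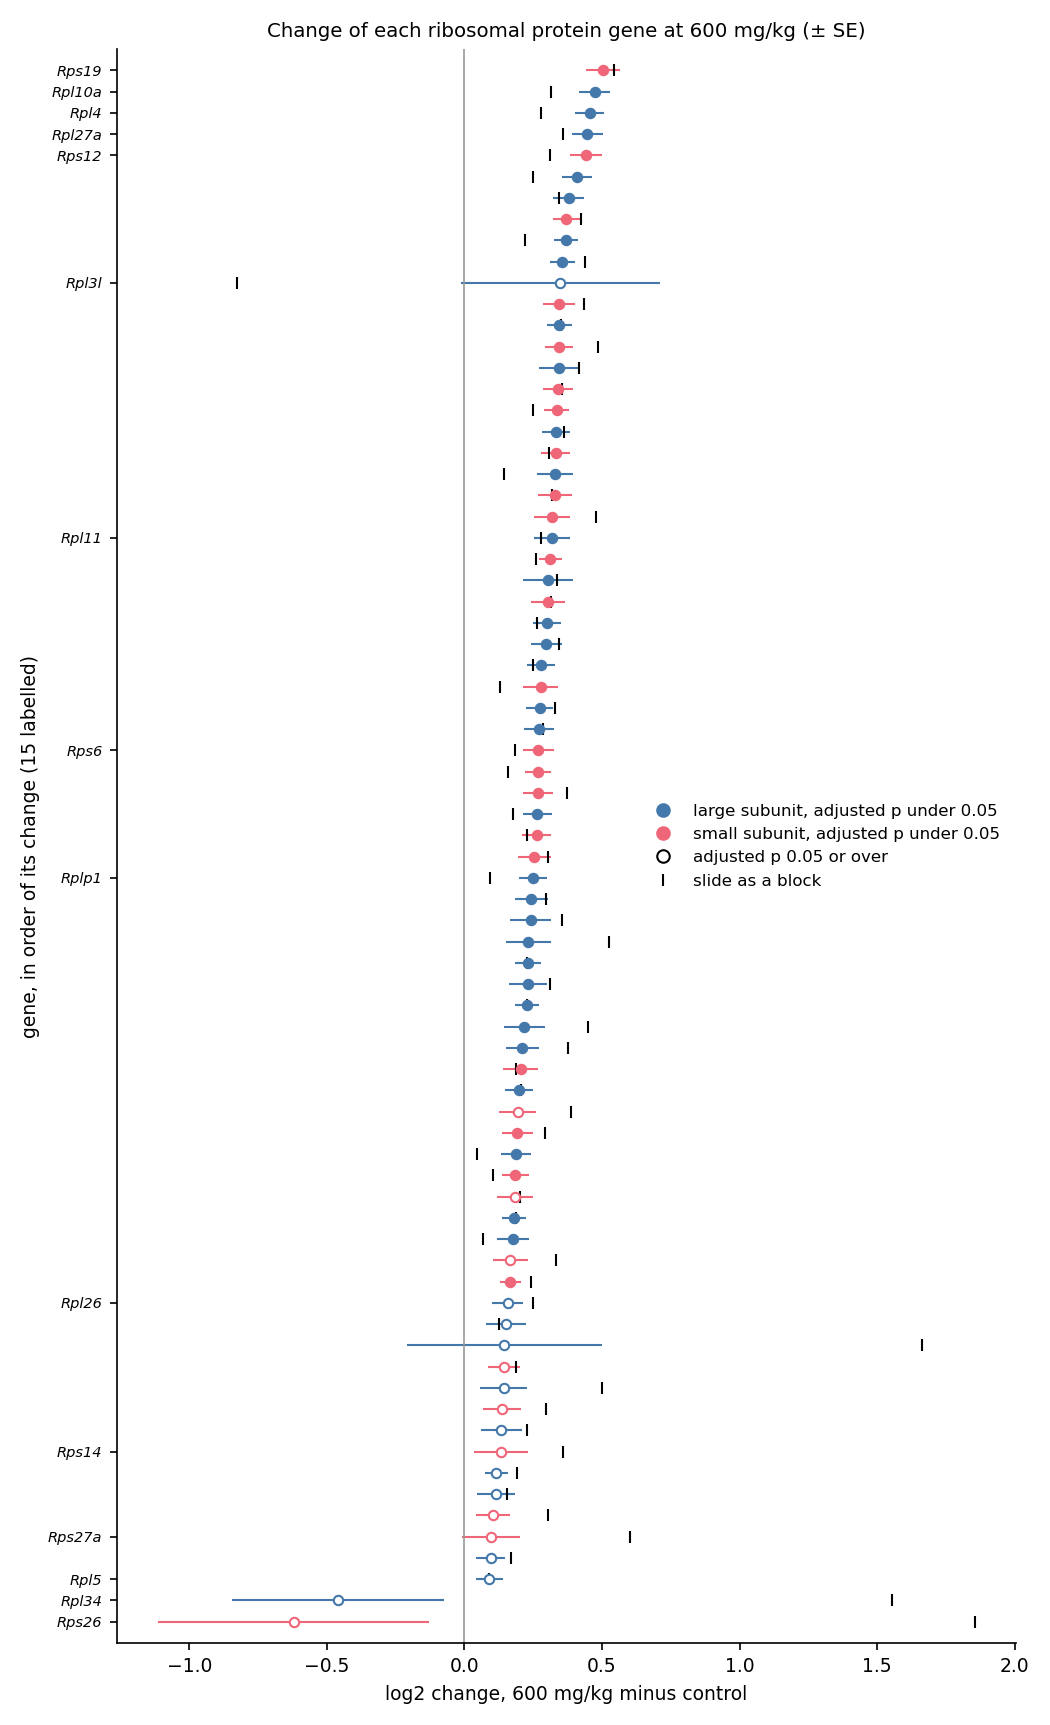
Log2 change at 600 mg/kg against control (x axis) with its limma standard error for each of the 74 tested genes (y axis, in order of change, 15 of them labelled), blue for the large and red for the small subunit, filled where the adjusted p was under 0.05. Black ticks are the slide-blocked changes, and 54 filled points lie to the right of 0, up to 0.50 for Rps19, while Rps26 and Rpl34 lie at -0.62 and -0.46 with their ticks at 1.86 and 1.55.

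Rps26 and Rpl34 stood apart and were singled out after their values were seen. Rps26, a protein at the exit of the messenger RNA, had levels of -2.19, -2.10 and -2.17 in controls and -1.81, -2.92 and -1.84 at the low dose. At the middle dose they were -2.25, -1.39 and -3.73, and at the high dose -3.04, -2.69 and -2.60. Rpl34 stood at 2.81, 2.92 and 3.06 in controls, 3.23, 2.21 and 3.07 at the low dose, 2.89, 3.38 and 1.71 at the middle dose and 2.18, 2.48 and 2.75 at the high dose. In both genes every high animal lay below every control. In both, low 2 and middle 3 were far below the other arrays of their group and middle 2 was the highest of all 12. The SD of Rps26 was 0.63 at the low and 1.18 at the middle dose, against 0.05 in controls and 0.24 at the high dose.

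The changes at 600 mg/kg were -0.62 ± 0.49 (SE) for Rps26 and -0.46 ± 0.39 for Rpl34, and neither passed (limma adjusted p = 0.356 and 0.385). Blocking on slide turned them to 1.86 (adjusted p = 0.0276) and 1.55 (adjusted p = 0.0634). Within slide 4 the high arrays lay above middle 3, their sole link to the other slides in the blocked fit, by 0.95 and 0.76. Across the 12 arrays, which share slides and groups, the 2 genes correlated at r = 0.98. With the mean of the other members Rps26 gave r = -0.16 and Rpl34 r = -0.14, while 64 of the 74 genes were over 0.8. The Rps26 probe was dim for a ribosomal protein gene, and all 12 arrays were well above background there.

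**Figure D3:**
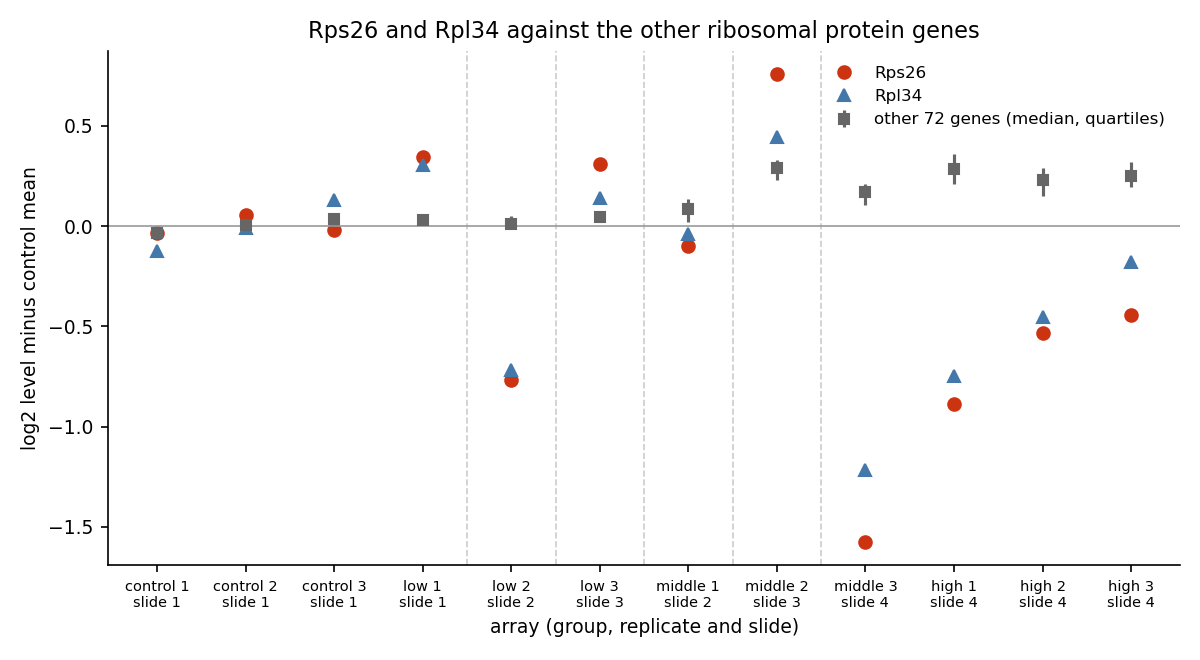
Log2 level minus the control mean (y axis) on each array (x axis, with its slide) for Rps26 (circles) and Rpl34 (triangles), with the median and quartiles of the other 72 genes (squares). Rps26 falls to -1.57 on middle 3 and reaches 0.76 on middle 2, where the other genes have medians of 0.17 and 0.29.

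The untested gene, Rpl37a, stood at -4.95, -3.50 and -4.62 in controls and -5.19, -5.23 and -6.02 at the high dose.

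The paralogs that replace a ribosomal protein in particular tissues were dim. Rpl3l, the form of Rpl3 in striated muscle, stood at -4.37, -4.09 and -4.34 in controls and -3.32, -4.12 and -4.33 at the high dose, and its highest value was -3.01 on low 2. Its change of 0.35 ± 0.36 (SE) did not pass (limma adjusted p = 0.486) and was -0.83 when slide-blocked. Rpl10l, related to the testis form of Rpl10 and now listed by RefSeq under another symbol, stood between -2.07 and -1.46 in controls and between -1.74 and -1.55 at the high dose (0.15 ± 0.35, adjusted p = 0.782; slide-blocked 1.66, adjusted p = 0.0521). Its change of -0.10 from 300 to 600 mg/kg did not pass (adjusted p = 0.876) and was 0.96 when slide-blocked (adjusted p = 0.0316). The blocked value rests on middle 3, where Rpl10l stood at -2.62, against -1.02 and -1.04 on the other middle arrays.

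At 300 mg/kg 29 of the 74 genes were higher and 0 lower (background 8.22% higher, 4.81% lower), with a median change of 0.17 (1.13-fold), against 0.02 over all genes. In 44 genes every middle animal lay above every control (background 20.4%). The count depended on single arrays: it was 4 without control 1, 4 without control 2, 16 without middle 2, 17 without middle 3 and 46 without middle 1. The 4 genes called whichever array was left out were Rpl23a, Rpl4, Rpsa and Rpl15. The slide-blocked median was 0.19, with 73 changes positive and 0 genes called (background 0.120%).

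The largest called rises at 300 mg/kg were in Rpl23a (0.30), Rps12 (0.30), Rpl27a (0.29), Rpsa (0.29), Rpl15 (0.29), Rpl4 (0.29) and Rps19 (0.29), with limma adjusted p between 0.00659 for Rpsa and 0.0171 for Rps19. Other large rises were those of Rpl10a (0.27), Rps24 (0.25), Rpl22 (0.25) and Rps28 (0.23). Rpl15, which scaffolds the large subunit's core, stood at 4.63, 4.58 and 4.62 in controls and 4.82, 5.01 and 4.85 at the middle dose. Rpsa stood at 4.17, 4.14 and 4.22 in controls and 4.45, 4.46 and 4.49 at the middle dose. Neither gene's groups overlapped.

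The 3 middle animals were unlike one another. Relative to the control mean, the median of the 74 genes was 0.08 on middle 1, 0.29 on middle 2 and 0.17 on middle 3, while the 3 high arrays gave 0.28, 0.22 and 0.25. Middle 2 was the highest of the 3 middle arrays for 63 genes and middle 1 the lowest for 58. The median SD over animals was 0.11 in the middle group, against 0.04 in controls, 0.04 at the low dose and 0.05 at the high dose. For all genes it was 0.07 in controls and 0.11 at the middle dose. The middle arrays lay on slides 2, 3 and 4, whose part in this spread cannot be told apart from the animals.

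At 150 mg/kg no ribosomal protein gene was called in limma, against a background of 0.0578% of genes higher. At an unadjusted p under 0.05 there were 0 of 74, against 10.1% of all genes. The median change was 0.03, with 60 changes positive, and in 10 genes every low animal lay above every control (background 11%). The 3 low arrays had medians of 0.03, 0.01 and 0.05 relative to the control mean, and the controls themselves ran from -0.03 to 0.04. The slide-blocked median was 0.03, again with 0 calls. Rps21, nearest the median, changed by 0.03.

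From 300 to 600 mg/kg 6 genes were higher and 0 lower (background 9.63% higher, 12.9% lower), with a median of 0.09 against -0.02 over all genes. The share of members called higher, 8.11%, was thus near that of all genes. The 6 called were Rps19 (0.22), Rpl6 (0.21), Rpl10a (0.21), Rpl14 (0.19), Rpl4 (0.17) and Rpl13 (0.16). The count moved with the scaling and with single arrays. It was 40 after quantile normalization, 26 without middle 2 and 1 without middle 1, high 1 or high 3, and Rpl6 alone kept its call whichever array was left out. Blocking on slide called 3 genes, Rpl10l and Rps26 among them (background 4.97%), with a median of 0.10. In that fit every change from 300 to 600 mg/kg is the mean of the high arrays minus middle 3 alone. For Rpl10l and Rps26 middle 3 was the lowest middle array.

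From 150 to 300 mg/kg 0 genes were called in limma (background 0.193%), with 40 of 74 at an unadjusted p under 0.05 against 16.0% of all genes. The median change was 0.15, 70 changes were positive, and in 37 genes every middle animal lay above every low animal (background 12.3%). Rpl30 lay nearest the median (0.15). Leaving out middle 3 gave 1 call. Group means rose in the order control, low, middle, high for 55 of 74 genes (74.3%), against 12.8% of all genes tested. All controls lay on slide 1 and all high arrays on slide 4, so a slide effect cannot be told apart from this order. The members also moved together, 64 of 74 correlating at over 0.8 with the mean of the others. The 55 genes are therefore not separate observations.

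Differences between arrays on the same slide had positive medians on all 4 slides. On slide 1, low 1 lay above the mean of the 3 controls by a median of 0.03, with 62 of 74 genes positive. On slide 2, middle 1 lay above low 2 by 0.07 (63 positive), and on slide 3 middle 2 lay above low 3 by 0.24 (74 positive). On slide 4 the high arrays lay above middle 3 by 0.10 (69 positive). Over all genes the medians of the same differences were 0.01, 0.003, 0.03 and -0.03. These are single arrays on at least 1 side, with no replicate check.

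**Figure D4:**
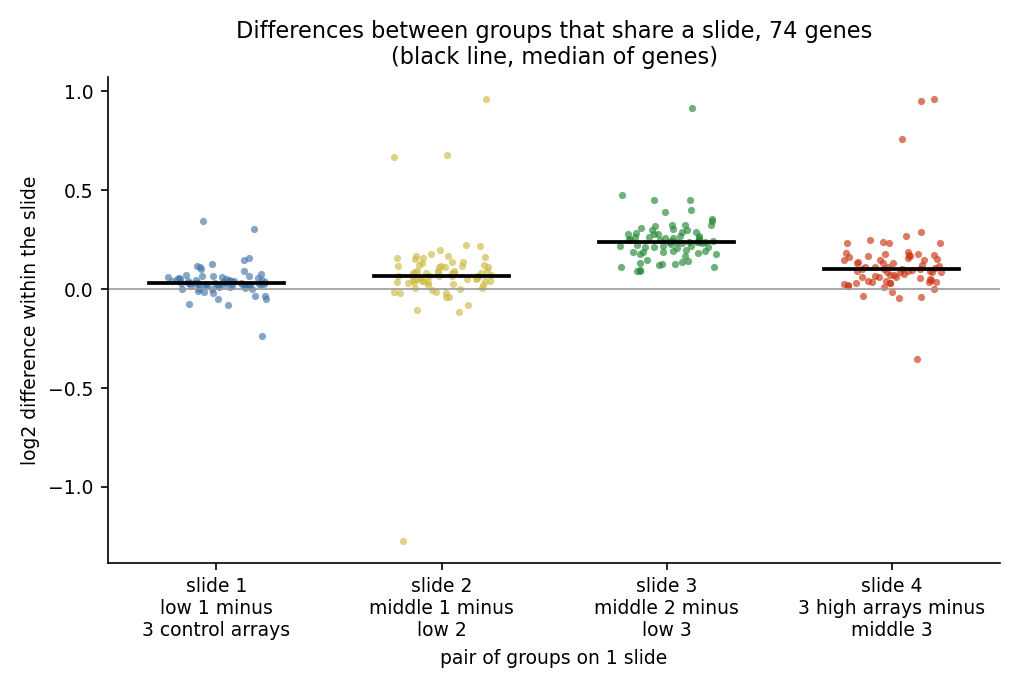
Log2 difference within a slide (y axis) for the 74 genes, for the 4 pairs of groups that share a slide (x axis), with a black line at the median of the genes. The medians are 0.03, 0.07, 0.24 and 0.10, and on slide 3 all 74 points lie above 0.

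Ribosomal protein genes are bright on the array, and brightness was looked at separately. Among the 2095 other genes at or above a level of 3.43, the 10th percentile of the members' levels, 24.1% were higher and 21.5% lower at 600 mg/kg, with a median change of 0.01. At 300 mg/kg 14.2% of them were higher, with a median of 0.07. Of the 66 members at or above the same level 52 were higher at 600 mg/kg.

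The 25 genes with several probes were checked probe by probe. Of 111 member probes tested on their own, 76 were higher and 0 lower at 600 mg/kg (background 17.3% of probes), and 39 were higher at 300 mg/kg (background 7.59%). Calls differed among the probes of 14 genes, among them Rpl5, Rpl10, Rpl15, Rpl18, Rpl19, Rpl21, Rpl26, Rpl31, Rpl35a, Rpl36a, Rpl37 and Rps2. Signs differed in 3 of these, Rpl10 and Rpl15 among them. The second Rpl10 probe gave -0.05 (0.41 slide-blocked), and the second Rpl15 probe gave -0.001 (slide-blocked -0.03).

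The genome holds many processed copies of ribosomal protein genes, whose transcripts can hybridise to the same probes, so a signal cannot be assigned to 1 copy with certainty. The array carries 350 further probes described as similar to a ribosomal protein. Of 276 tested, 155 were higher and 3 lower at 600 mg/kg, with a median of 0.24 (0.38 slide-blocked), and 88 were higher and 2 lower at 300 mg/kg. The shares higher were 56.2% and 31.9%, against 17.3% and 7.59% of all probes. By the rule of highest correlation with the mean of the members over 12 arrays, the 5 most alike genes outside the name rule were led by RGD1562134 (r = 0.99), described as similar to the large-subunit protein L9. They also held RGD1562394, similar to L30, Rps26-ps13 (r = 0.99; change at the high dose 0.33), similar to S26, and 2 unnamed transcripts, 1 of them similar to S2.

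The changes were also read by the pyrimidine tract, and differences between genes with and without it were not tested. Of the tested genes with a tract within 3 bases of the annotated start, 23 of 32 were higher at 600 mg/kg, with a median of 0.24. Of those without, 18 of 24 were higher, with a median of 0.29. With the tract counted only exactly at the start, 13 of 21 with it were higher (median 0.23). Without it there, 28 of 35 were higher (median 0.27). Over all genes 18.0% were higher. Of the 3 tract genes shown above that did not pass, Rps15 stood at 2.40, 2.41 and 2.38 in controls and 2.44, 2.57 and 2.49 at the high dose (0.10 ± 0.06, limma adjusted p = 0.222).

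The genes that build ribosomes were read beside those of its proteins. Of 79 tested genes of ribosome biogenesis and the nucleolus, 38 were higher and 1 lower at 600 mg/kg, with a median of 0.16 (slide-blocked 0.14, 2 called), against 18.0% and 16.8% of all genes. At 300 mg/kg 4 were higher and 1 lower (all genes 8.22% and 4.81%), with a median of 0.02, and 0 were higher without control 1 or control 2. From 300 to 600 mg/kg 33 were higher and 0 lower (all genes 9.63% and 12.9%), with a median of 0.13 (slide-blocked 0.12, 14 called), and between 27 and 35 were higher whichever array was left out. The ribosomal protein genes gave 29 higher (39.2%) in the first of these steps and 6 (8.11%) in the second, against 8.22% and 9.63% of all genes. Leaving out 1 array moved these counts from 4 to 46 and from 1 to 26. Quantile normalization gave 40 in the second step. Both steps share the 3 middle arrays, and the difference between the lists was not tested.

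Nop56, a core protein of the particles that methylate ribosomal RNA, stood at 2.50, 2.54 and 2.50 in controls, 2.53, 2.58 and 2.63 at the middle dose and 3.25, 3.098 and 3.19 at the high dose. Its high animals stood clear of all others, and the change was 0.67 ± 0.05 (SE, limma adjusted p = 2.81e-05; slide-blocked 0.47, adjusted p = 0.0795). From 300 to 600 mg/kg it rose by 0.60 (adjusted p = 9.58e-05), also when slide-blocked (0.55, adjusted p = 0.00702). Nhp2, of the particles that modify uridines in ribosomal RNA, rose by 0.66 ± 0.05 at the high dose (adjusted p = 1.23e-05; slide-blocked 0.59, adjusted p = 0.0477). Nop53, which joins the maturing large subunit, fell by 0.29 on the log2 scale (limma adjusted p = 0.00563; slide-blocked -0.17, adjusted p = 0.402).

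**Figure D5:**
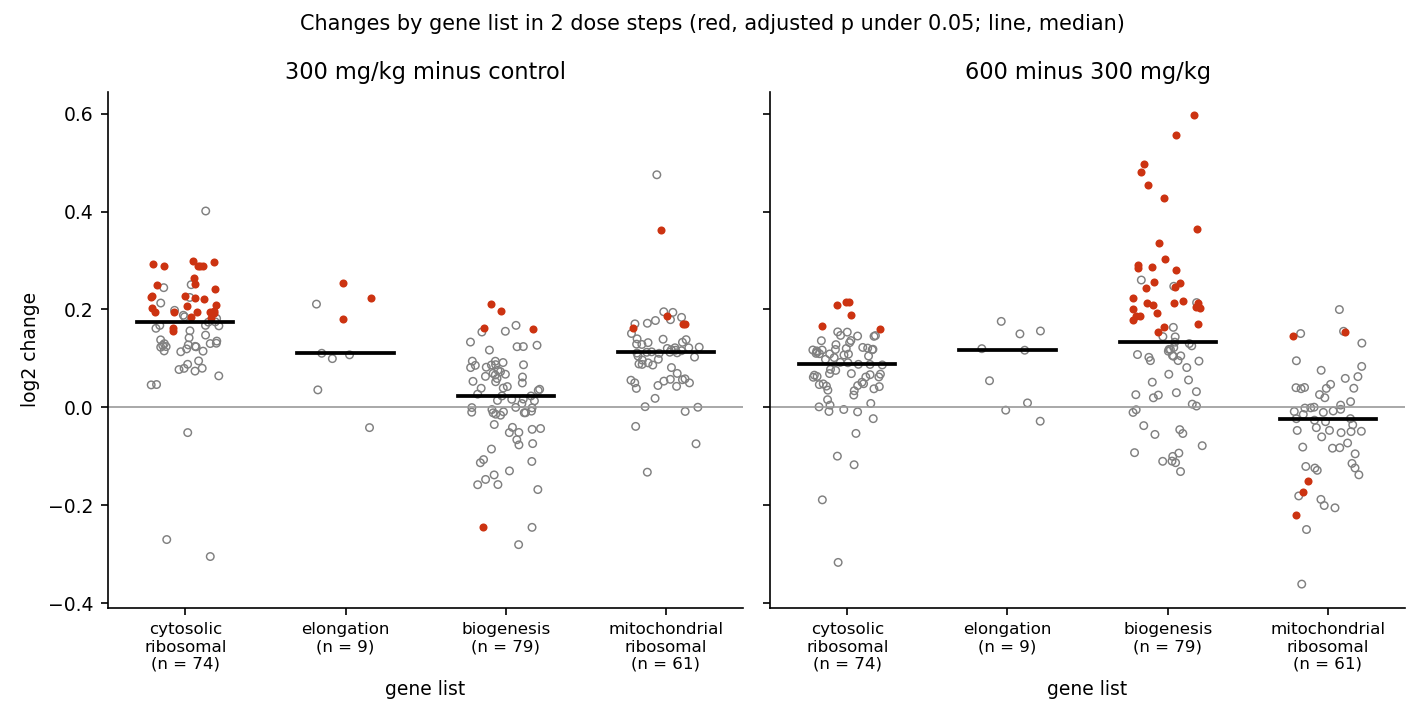
Log2 change (y axis) of each tested gene in 4 gene lists (x axis), from control to 300 mg/kg on the left and from 300 to 600 mg/kg on the right, red where the limma adjusted p was under 0.05, with a black line at the median. Cytosolic ribosomal protein genes have medians of 0.17 and 0.09, and biogenesis genes 0.02 and 0.13.

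Mitochondrial ribosomes have proteins of their own, encoded by the Mrpl and Mrps genes. Of 61 tested, 15 were higher and 1 lower at 600 mg/kg (median 0.08; slide-blocked 0.13, 0 called), against 18.0% and 16.8% of all genes. There were 5 higher at 300 mg/kg (median 0.11), a share near the 8.22% of all genes. The count at 600 mg/kg was 8 without control 1 or high 1, 10 without control 2 and as many as 20 without middle 2. At 300 mg/kg it ranged from 1 without control 1 or control 2 to 8 without middle 1. Mrps27 (0.42) and Mrpl38 (0.40) rose most at 600 mg/kg and Mrpl16 fell by 0.22 on the log2 scale (limma adjusted p = 0.000413, 0.00278 and 0.00844). Slide-blocked, Mrpl38 stood at 0.0050. From 300 to 600 mg/kg 2 were higher and 3 lower, with a median of -0.02, against 9.63% and 12.9% of all genes.

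Of 9 translation elongation genes 5 were higher at 600 mg/kg and 3 at 300 mg/kg (1 without control 1, control 2 or middle 2), with medians of 0.22 and 0.11 and none lower. Over all genes 18.0% and 8.22% were higher at these doses. Eef1g and Eef1b2, subunits of the factor that recharges eEF1A, rose by 0.38 and 0.30 (limma adjusted p = 0.00113 and 0.000761). Their slide-blocked changes of 0.16 and 0.28 were not called. Of 5 ribosome-linked genes Rack1, a scaffold on the small subunit, was the sole one higher at 600 mg/kg, at 0.34 (limma adjusted p = 0.00138; slide-blocked 0.28, adjusted p = 0.226). Its levels were 3.31, 3.26 and 3.31 in controls, 3.53, 3.69 and 3.65 at the middle dose and 3.71, 3.55 and 3.63 at the high dose, so middle and high animals overlapped and both lay above controls. Fau, which encodes a fusion of a ubiquitin-like protein with a ribosomal protein, changed by 0.10 and did not pass (adjusted p = 0.351).

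In the S6 kinase and growth signalling list 3 of 23 genes were higher and 5 lower at 600 mg/kg, with a median of 0.02, near the shares of all genes (18.0% higher, 16.8% lower). Eif4ebp1, the translation inhibitor that mTOR switches off, rose by 0.37 (limma adjusted p = 0.000946), and the kinase gene Rps6ka5 fell by 0.53 on the log2 scale (adjusted p = 0.00133). Max, the partner of Myc, fell by 0.37 (adjusted p = 0.0179) and stood at 0.04 when slide-blocked. Rps6ka6, 1 of the 3 called higher, was well above background on 4 of the 12 arrays, and the size of its change is not given. The transcription factor Myc, named after its values were seen, stood at 0.63, 0.77 and 0.56 in controls, 0.23, -0.05 and 0.21 at the middle dose and 1.19, 1.06 and 1.20 at the high dose. These 3 groups did not overlap. At the low dose Myc stood at -0.06, 0.88 and 0.86, with low 1 near the middle animals and the other two above the controls. From 300 to 600 mg/kg it rose by 1.02 ± 0.21 (SE, limma adjusted p = 0.00709; slide-blocked 0.94, adjusted p = 0.00522), whereas against control neither the middle dose (-0.52, adjusted p = 0.124) nor the high dose (0.49, adjusted p = 0.0943) passed. Slide-blocked, these were -1.49 (adjusted p = 0.0278) and -0.55 (adjusted p = 0.145), and both rest on low 1, the link to the controls.

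Markers of the tissue and of other cells differed between groups, not always in the order of the doses, and their part in the result was not tested. Their counts stand beside 18.0% of all genes higher and 16.8% lower at 600 mg/kg. At 300 mg/kg these shares were 8.22% and 4.81%, and from 300 to 600 mg/kg 9.63% and 12.9%. All 8 proximal tubule markers were tested. Of these, 7 were lower at 600 mg/kg and 0 at 300 mg/kg, and their summed signal, in units of the 75th percentile, was 842 to 888 in controls, 796 to 825 at the middle dose and 654 to 692 at the high dose. Of 10 proliferation markers 7 were higher at 600 mg/kg, with sums of 13.1 to 15.1 in controls and 21.8 to 25.1 at the high dose. At 300 mg/kg 3 of the 10 were higher and 5 lower, with sums of 10.5 to 12.3. Of 5 tested macrophage markers 3 were higher at 600 mg/kg and 0 at 300 mg/kg (sums 28.9 to 34.3 in controls, 35.1 to 40.8 at the middle dose, 35.9 to 39.9 at the high dose). The macrophage marker Cd163, Mpo of neutrophils, Cd3e of T cells and Cd79b of B cells were not well above background on any array. Another neutrophil marker, the 1 of that list that was tested, was lower at 300 mg/kg (-1.69, slide-blocked -3.03 and not called). From 300 to 600 mg/kg it was higher by 2.42 (slide-blocked 2.31, also called). Its change of 0.74 at 600 mg/kg did not pass. The neutrophil sums were low, 0.03 to 0.07 in controls and 0.07 to 0.08 at the high dose. Of 2 tested T cell markers 1 was higher and 1 lower at 600 mg/kg. Of 4 endothelial markers 3 were lower at 600 mg/kg (sums 48.3 to 51.0 in controls and 38.0 to 40.1 at the high dose). Of 4 markers of the loop of Henle and distal tubule 2 were higher at 600 mg/kg (median 0.29) and 2 at 300 mg/kg (median 0.26), with sums of 342 to 369 in controls, 373 to 409 at the middle dose and 380 to 399 at the high dose. Of 4 collecting duct markers 2 were higher at 600 mg/kg (median 0.22) and 1 at 300 mg/kg (median 0.18). The 3 tested glomerulus markers gave 0 calls at 600 and at 300 mg/kg (medians 0.02 and -0.07). Of 2 red blood cell markers 2 were lower at 600 mg/kg (median -0.81) and 1 at 300 mg/kg (median -0.84). With slide as a block fewer markers were called at 600 mg/kg. Then 2 proximal tubule markers were lower (median -0.24). Higher were 4 proliferation markers (median 0.89) and 1 loop and distal tubule marker (median 0.34). Macrophage (median 0.30), endothelial (median -0.36), T cell, collecting duct and red blood cell markers gave 0 calls. In that fit 1.83% of all genes were higher.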

How the data were processed

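Total RNA of 12 kidney cortices was measured on single-colour Agilent arrays. Feature Extraction 9.1.3.1 produced the signals, per the file headers, and the deposited processed signal is a linear intensity after background subtraction, beside flags of 0 or 1 for spots well above background, saturated or outlying. The authors also deposited a table of linear ratios, in which each processed signal (raised to 5 where lower) was divided by a constant of its array. This held to within 0.1% for each of the 40749 probes with a single spot, and column medians ran from 1.003 to 1.005, so scale and direction are known and genes were not centred. It served as an alternative, with 0 columns unused.

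Log2 signals were averaged over the unflagged spots of a probe and scaled to the 75th percentile of the array. The brightest probe over all arrays stood for a gene. A gene was tested if every array of some group (3 of 3) measured it well above background and each group had 2 or more unflagged arrays. The test was limma 3.58.1 (R 4.3.3), fitted to 12 arrays with a mean for each group, with Benjamini-Hochberg adjustment over all 20769 genes. A middle 1 value of Ncl was flagged and left out. The fit was tested on simulated data. The number of arrays limits the precision.

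Of the 112 member probes, 92 were matched to RefSeq genes by accession and 20 by symbol. The RefSeq symbol differed from the array's for 4 of them. The members, lists and alternatives were chosen with earlier results of these data known. Named were the 12 largest called rises and falls against control (5 between doses), the gene nearest the median, a fixed set of members, genes whose probes disagreed, and the largest changes of each companion list. Rps26, Rpl34, Rps15, Myc, Fau and, between doses, Rpl13 were named after their values were seen. Some genes the rule names are not reported here. The labels do not say what the replicate numbers stand for, and the main fit did not use them to pair arrays.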

Additional observations from a re-analysis of the deposited data

How the results depend on the processing

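The median change of the members stayed positive under every alternative at 600 mg/kg (0.24 to 0.30) and at 300 mg/kg (0.10 to 0.22). With slide as a block 2 members were called at 600 mg/kg (median 0.30), 0 at 300 mg/kg and 3 from 300 to 600 mg/kg. Quantile normalization together with the slide block, chosen after seeing the data, gave 3, 0 and 11, and a median of -0.0041 at 150 mg/kg. At 300 mg/kg no filter gave 7 and fitting only the groups compared gave 0. From 300 to 600 mg/kg quantile normalization gave 40, trended and robust moderation 11, a median shift, the authors' value table and no filter 1 each, and only the groups compared 0. The cause was not tested. Leaving out 1 array gave 42 to 62 calls at 600 mg/kg, 4 to 46 at 300 mg/kg, 1 to 26 from 300 to 600 mg/kg and 0 to 1 from 150 to 300 mg/kg. Signs turned at 600 mg/kg with slide as a block for several genes, among them Rps26 (1.86), Rpl34 (1.55), Rpl3l (-0.83), Max (0.039), Myc (-0.55) and Ncl (0.16 to -0.023). With quantile normalization added the first 4 were 1.88, 1.52, -0.81 and 0.039, and Mrpl38 at 600 mg/kg turned to -0.0097. Deviations from the group mean correlated between -0.23 and 0.12 over all genes for same-numbered arrays of different groups. With 3 arrays per group and shared slides, these values cannot decide whether the numbers pair animals. With the replicate block 51, 20 and 4 members were called at 600 mg/kg, at 300 mg/kg and between these doses. With 3 arrays per group and changes near 0.2, the number of arrays limits which calls can be made.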
